A study of Mus musculus with 6 samples.

Results

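The brush border is the carpet of microvilli on the lumen side of the absorptive cells (enterocytes) of the small intestine. Its membrane carries anchored enzymes that finish the digestion of sugars, peptides and phosphate esters, and each microvillus is held up by a bundle of actin filaments, with bridges of cadherin proteins between neighbouring tips. The genes of both parts are used as markers of mature enterocytes, and many are bound and activated by the transcription factors HNF4, HNF1 and CDX2. A set of 31 such genes, chosen by name, was followed through the series: 31 of the 32219 genes of the deposited table. They comprised 3 glycosidases, 11 peptidases, 2 phosphohydrolases, 2 subunits of an endocytic receptor, 5 genes of the intermicrovillar adhesion complex and 8 genes of the actin core and its links to the membrane.

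The series holds 6 mouse RNA-seq libraries of whole intestine, 3 wild type (WT) and 3 knockout (KO). The design text speaks of the duodenum, while the labels count immune cells and enteric neurons among the cells sampled, beside epithelium. The series title names GPR41 and DHX9 of enteric neurons, but the gene knocked out, the driver of any Cre, strain, age and whether each library came from its own mouse are not given here. The p-values thus rest on the spread between libraries alone, and part of that spread may be technical. Values are log2 abundances as deposited, and since it is not stated whether the abundance is per transcript length, levels were compared between libraries and never between genes. In whole tissue, fewer cells of a type and less RNA per cell cannot be told apart.

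One library, KO 1, has values only on chromosomes 1 and 10 to 18 and on part of chromosome 19. There its linear values were 2.12 times those of the other libraries at the median of 2160 genes. It holds values for 15 of the 31 brush border genes and none for the other 16, whose zeros were treated as missing. KO 2 and KO 3 were therefore compared with the 3 WT libraries, and KO 1 is given beside them after division by that factor. The tissue label was checked against segment markers. Gata4, which sets proximal identity in the small intestine, ranged from 0.43 to 0.63 in the 5 libraries and was at 5.19 in KO 1, whereas Fabp6, the bile acid binding protein of the ileum, ranged from 8.16 to 8.76 in the 5 and was at 3.91 in KO 1. The 5 libraries therefore go against the duodenal label by these markers, and KO 1 goes against the other 5.

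No brush border gene passed the test between KO and WT. In limma over 22047 genes, 0 of the 31 had a Benjamini-Hochberg adjusted p under 0.05 (adjusted p = 0.99998 for each), where 0.00454% of all genes tested were called. One of the 31, Mme, had an unadjusted p under 0.05, against 2.23% of all genes. Of the 31, 23 had a fold above 0 and 8 below, where 61.1% of all genes had a fold above 0. The median log2 fold of the 31 was 0.05, beside 0.03 over all genes tested. Relative to the median of each library the split was 14 above and 17 below, and relative to pan-epithelial genes such as Epcam it was 16 above and 15 below. The 95% intervals of the log2 fold had half-widths from 0.15 to 0.62, and for 30 of the 31 genes the interval lay within 1 log2 unit of 0. Because a constant is added before the logarithm, 1 unit is more than a 2-fold difference for genes near 0. For Tmprss15 and Vill, which lie near 0, a 2-fold difference is thus not excluded. Under base e every interval would be 1.44 times wider.

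**Figure D1:**
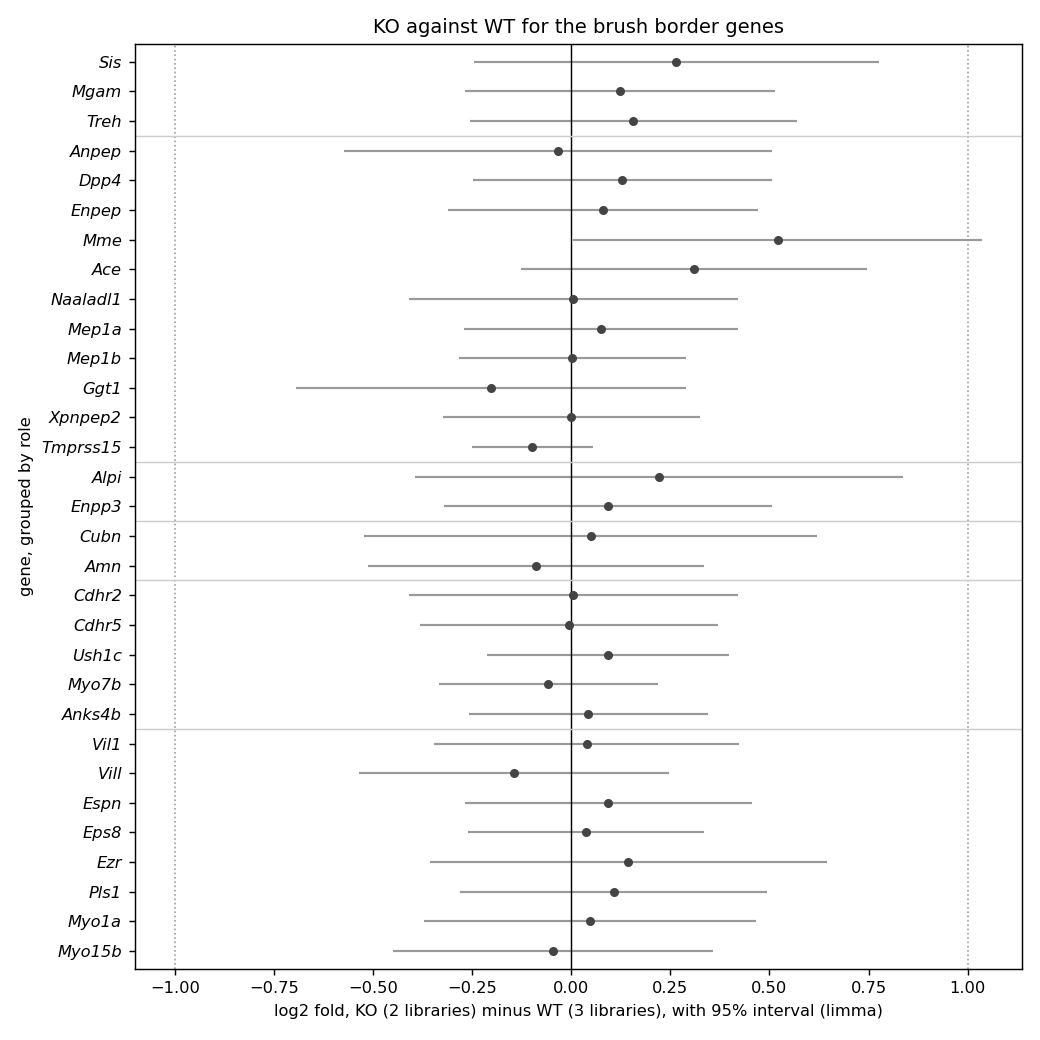
Log2 fold of KO (KO 2 and KO 3) against WT (3 libraries) for the 31 brush border genes, grouped by role, with limma's 95% interval; dotted lines mark 1 log2 unit. Every interval spans 0 except that of Mme, which starts just above 0 and is the one that reaches past 1.

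The glycosidases cut dietary sugars at the membrane. Sucrase-isomaltase, encoded by Sis (chromosome 3, 72888557 to 72967863, minus strand), splits sucrose and starch fragments, and its rise at weaning is a classic sign of the adult enterocyte. Sis stood at 7.87, 7.43 and 7.50 in WT 1, WT 2 and WT 3, against 7.61 in KO 2 and 8.12 in KO 3. KO 3 was the highest library and KO 2 lay inside the WT range, so the groups overlapped. The log2 fold was 0.27 ± 0.21 (SE, limma adjusted p = 0.99998). Maltase-glucoamylase, encoded by Mgam, releases glucose from starch fragments. Mgam stood at 8.17, 7.98 and 8.18 in the WT libraries, against 8.06 in KO 2 and 8.41 in KO 3. Its log2 fold was 0.12 ± 0.16 (SE). Treh, encoding trehalase, which splits the fungal and insect sugar trehalose, stood at 2.69, 2.64 and 2.73 in the WT libraries, against 2.61 in KO 2 and 3.07 in KO 3. KO 2 was the lowest and KO 3 the highest of the 5 libraries for Treh (log2 fold 0.16 ± 0.17, SE). Leaving out KO 3 turned the folds of Mgam and Treh to -0.05 and -0.07 and that of Sis to 0.01.

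The promoters of Sis, of Treh and of Alpi, the intestinal alkaline phosphatase, are shown because they hold the letters read by the enterocyte factors named above. They come from RefSeq (build GRCm38.p6), each with 250 bases before and 50 after the transcript start, on the strand of the gene. Capitals mark matches on either strand to 5 motifs. The core of the HNF1 site was searched as GTTAAT, the CDX site as TTTATG, the GATA site as AGATAA, the HNF4 site as CAAAGTCCA and the TATA box as TATAAA.
Sis, chr3:72967814-72968113, minus strand: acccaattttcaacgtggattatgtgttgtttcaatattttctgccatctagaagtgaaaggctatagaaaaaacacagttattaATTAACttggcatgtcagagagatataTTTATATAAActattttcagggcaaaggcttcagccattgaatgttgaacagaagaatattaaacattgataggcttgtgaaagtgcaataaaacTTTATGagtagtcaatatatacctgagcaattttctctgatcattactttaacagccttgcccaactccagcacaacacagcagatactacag
Alpi, chr1:87101557-87101856, minus strand: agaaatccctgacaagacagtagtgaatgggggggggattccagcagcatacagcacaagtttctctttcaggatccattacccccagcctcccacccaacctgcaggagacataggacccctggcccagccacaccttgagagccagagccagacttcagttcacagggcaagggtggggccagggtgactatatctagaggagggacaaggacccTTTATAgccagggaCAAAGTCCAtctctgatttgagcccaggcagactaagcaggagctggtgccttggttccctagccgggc
Treh, chr9:44672983-44673282, plus strand: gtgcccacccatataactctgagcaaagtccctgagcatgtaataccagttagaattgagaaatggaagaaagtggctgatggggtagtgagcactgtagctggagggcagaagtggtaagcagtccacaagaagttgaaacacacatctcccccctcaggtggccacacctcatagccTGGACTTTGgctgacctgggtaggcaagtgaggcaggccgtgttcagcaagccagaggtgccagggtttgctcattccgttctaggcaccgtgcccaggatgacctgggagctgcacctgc
In Sis, the HNF1 letters begin 165 bases and the CDX letters 43 bases before the start, and the pair of TATA matches overlap each other. In Alpi, the HNF4 letters begin 19 bases before the start, after a TATA match on the other strand, and in Treh they begin 71 bases before it, on the other strand. RefSeq held promoters for 27 of the 31 genes, 35 in all. The HNF4 letters were in 2 of these 35 (5.71%), against 0.475% of the 32851 promoters of the table. The HNF1 letters were in 11.4% against 7.1%, the CDX letters in 14.3% against 11.9%, the GATA letters in 8.57% against 11.2%, and the TATA box in 22.9% against 13.6%. A match describes the letters in this window and shows no binding. Hnf4a, which encodes the factor HNF4A, stood at 7.13 to 7.41 over the 5 libraries, and Cdx2 at 5.79 to 6.08.

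The peptidases trim peptides to amino acids and to di- and tripeptides that enterocytes take up. Mme encodes neprilysin, a zinc peptidase that is also made by stromal and immune cells. Mme stood at 2.40, 2.90 and 2.67 in the WT libraries, against 2.94 in KO 2 and 3.41 in KO 3. Both KO libraries lay above the 3 WT libraries, KO 2 by a narrow margin over WT 2, and Mme was the one gene of the 31 whose groups did not overlap (9.82% of all genes had KO above WT in this way, and 3.77% below). Its log2 fold was 0.52 ± 0.21 (SE, unadjusted p = 0.049, limma adjusted p = 0.99998), with a 95% interval from 0.0046 to 1.04. The fold of Mme was 0.286 without KO 3 and 0.755 without KO 2. Unlike the other peptidases, its lowest library was WT 1. The Mme transcript shares stretches of 200 to 212 bases at 91.7% to 94.5% identity with other genes, Zfp488 and Gm44835 among them. Some of its reads may thus be split with those genes.

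Ace encodes angiotensin-converting enzyme, a peptidase anchored in the brush border as well as in vessels (chromosome 11, 105967945 to 105989964, plus strand). Ace stood at 5.44, 5.30 and 5.29 in WT, at 5.35 in KO 2 and at 5.95 in KO 3. KO 3 alone lay above the WT range, and the log2 fold of 0.31 ± 0.18 (SE) fell to 0.01 without KO 3. Ggt1, encoding gamma-glutamyltransferase, which breaks down glutathione outside the cell, stood at 6.55, 5.84 and 6.21 in the WT libraries, against 5.98 in KO 2 and 6.02 in KO 3. Its log2 fold was -0.20 ± 0.20 (SE), and the WT libraries spread wider (SD 0.36, n = 3) than the difference. The fold of Ggt1 was -0.0265 without WT 1 and -0.382 without WT 2. Over all 11 peptidases, 8 had a fold above 0 and 3 below, with a median log2 fold of 0.01.

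The main aminopeptidases and dipeptidyl peptidase shared WT 2 as their lowest library. Anpep (aminopeptidase N) stood at 9.79, 9.38 and 9.49 in the WT libraries, against 9.44 in KO 2 and 9.59 in KO 3. Dpp4, which removes dipeptides and also inactivates incretin hormones, stood at 6.93, 6.48 and 6.80 in the WT libraries, against 6.78 in KO 2 and 6.95 in KO 3. Enpep (aminopeptidase A) stood at 7.44, 6.97 and 7.28 in the WT libraries, against 7.23 in KO 2 and 7.38 in KO 3. WT 1 was the highest library for Anpep and Enpep and KO 3, by a narrow margin, for Dpp4, and the groups overlapped in each.

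The remaining peptidases had log2 folds near 0, from -0.10 for Tmprss15 to 0.08 for Mep1a. Tmprss15 itself lies near 0, where the added constant shrinks log2 folds, so its -0.10 does not exclude a 2-fold difference. The meprin subunit genes Mep1a and Mep1b encode secreted and membrane-bound forms of a metalloprotease. Mep1a ranged from 7.31 to 7.62 over the 5 libraries and Mep1b from 7.38 to 7.59. Naaladl1, a peptidase of the glutamate carboxypeptidase family, ranged from 8.44 to 8.78, and Xpnpep2, which cleaves before proline, from 5.40 to 5.80. Tmprss15 encodes enteropeptidase, the duodenal protease that activates trypsinogen, and was near 0 in all 5 libraries, at 0.17, 0.29 and 0.22 in the WT libraries, against 0.06 in KO 2 and 0.19 in KO 3.

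The phosphohydrolases were Alpi, which also removes phosphate from bacterial lipopolysaccharide, and Enpp3, which cleaves nucleotides outside the cell. Alpi (chromosome 1, 87098002 to 87101606, minus strand) stood at 6.07, 5.68 and 5.81 in WT, at 5.66 in KO 2 and at 6.49 in KO 3. The lowest and the highest of the 5 values were thus both KO libraries, and the log2 fold was 0.22 ± 0.25 (SE), the widest error among the 31 genes. Without KO 3 the fold of Alpi was -0.195 and that of Enpp3 -0.0265. Its transcript shares a stretch of 413 bases at 93.2% identity with Akp3, the neighbouring alkaline phosphatase gene, so reads may be split between them. Akp3 had another order, at 1.63, 3.20 and 2.75 in the WT libraries, against 1.32 in KO 2 and 2.48 in KO 3. Enpp3 stood at 2.14, 2.38 and 2.08 in the WT libraries, against 2.17 in KO 2 and 2.41 in KO 3. Its log2 fold was 0.09 ± 0.17 (SE).

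Cubn and Amn encode cubilin and amnionless, which together form the ileal receptor that takes up vitamin B12 bound to intrinsic factor. Cubn stood at 6.55, 6.27 and 5.82 in the WT libraries, against 6.06 in KO 2 and 6.47 in KO 3. Amn stood at 5.11, 4.67 and 4.80 in the WT libraries, against 4.57 in KO 2 and 4.97 in KO 3. WT 1 was the highest library for both, while the lowest was WT 3 for Cubn and KO 2 for Amn. The log2 folds, 0.05 and -0.09, were below the WT spread.

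The intermicrovillar adhesion complex ties microvillus tips together: the protocadherins of Cdhr2 and Cdhr5 form the links, and Ush1c (harmonin), Anks4b and the motor gene Myo7b anchor them inside. Cdhr2 stood at 7.36, 6.94 and 7.22 in the WT libraries, against 7.003 in KO 2 and 7.35 in KO 3. Cdhr5 stood at 8.21, 7.83 and 8.05 in the WT libraries, against 7.97 in KO 2 and 8.09 in KO 3. Ush1c ranged from 5.51 to 5.81, Anks4b from 4.46 to 4.78 and Myo7b from 5.77 to 6.07 over the 5 libraries. The 5 log2 folds lay between -0.06 and 0.09, and in all 5 genes KO 3 was above KO 2 and the groups overlapped.

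The 8 genes of the actin core and its links had log2 folds from -0.14 (Vill) to 0.14 (Ezr), with a median of 0.04. Vil1 encodes villin, the bundler and severer of microvillar actin (chromosome 1, 74409376 to 74435559, plus strand). Vil1 stood at 7.98, 7.58 and 7.77 in the WT libraries, against 7.71 in KO 2 and 7.92 in KO 3, a log2 fold of 0.04 ± 0.16 (SE) that turned negative in sign when libraries were centred on their medians (-0.01). It was -0.0676 without KO 3 and -0.0592 without WT 2. The other bundlers Pls1 (plastin 1) and Espn (espin) ranged from 6.97 to 7.42 and from 4.54 to 4.92, and Eps8, which caps filament tips, from 5.88 to 6.21. Ezr encodes ezrin, which ties the core to the membrane, and stood at 6.87, 6.40 and 6.74 in the WT libraries, against 6.56 in KO 2 and 7.08 in KO 3, with KO 3 the highest. Myo1a, the motor that bridges core and membrane, ranged from 6.87 to 7.33, and Myo15b from 7.16 to 7.58. Vill, a villin relative, was low throughout, from 0.53 to 1.05. Exons of 8 of the 31 genes, Vil1, Ezr, Ace and Treh among them, overlap a gene on the opposite strand, and though the labelled kit keeps strand, the strand setting of the counting is not given, so their reads may be mixed.

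One relation between libraries held for every brush border gene: KO 3 was above KO 2 for 31 of 31, where 48.9% of all genes tested were. This order was not particular to the brush border. The 12 smooth muscle markers had medians against the WT mean of -0.24 in KO 2 and 0.15 in KO 3. Those of the neuron and glia markers were -0.19 and 0.21, while the immune, Paneth cell and stem cell lists had the reverse order. The highest and the lowest library differed between genes. WT 2 was the lowest of the 5 libraries for 17 of the 31 genes (16.2% of all genes), KO 2 for 7 (13.1%), and KO 3 for 0. KO 3 was the highest for 15 genes (26.2% of all genes) and WT 1 for 14 (14.5%). KO 3 exceeded all 3 WT libraries for 15 genes (30.1% of all genes), and KO 2 lay within the WT range for 23 (56.2%). As a median over the 31 genes against the WT mean, WT 1 stood at 0.19, WT 2 at -0.15, WT 3 at -0.0043, KO 2 at -0.07 and KO 3 at 0.18. The spread within either genotype thus exceeded the difference between them. Without KO 3, 6 of the 31 genes had a fold above 0 and 25 below (median -0.07), and without KO 2, 28 were above and 3 below (median 0.18). Without WT 2, 13 were above and 18 below (median -0.03).

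**Figure D2:**
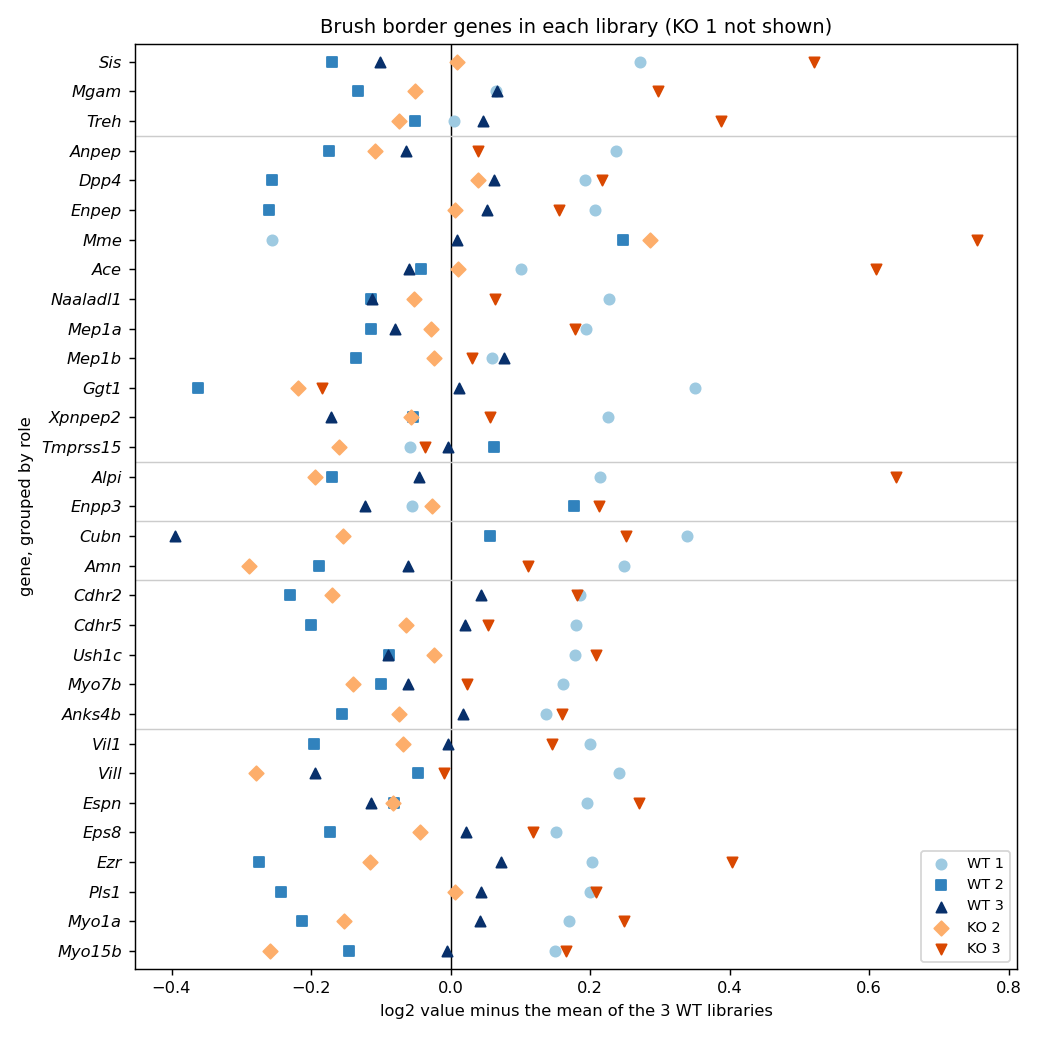
Log2 value of each of the 31 genes minus its mean in the 3 WT libraries, 1 point per library (blue WT, orange KO; KO 1 not drawn), grouped by role. WT 1 and KO 3 each lie right of the WT mean for 28 genes, WT 2 left of it for 27 and KO 2 for 25; Mme, Tmprss15 and Enpp3 have WT 1 on the left, and Ggt1, Tmprss15 and Vill have KO 3 on the left.

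Levels of other genes also differed between these libraries. The 16 pan-epithelial genes had medians against the WT mean of 0.08, -0.13 and 0.08 in WT and of -0.04 and 0.09 in KO 2 and KO 3, the same sign in each library except WT 3. Epcam itself stood at 8.45, 8.10 and 8.38 in the WT libraries, against 8.22 in KO 2 and 8.42 in KO 3. The 10 immune markers were highest where the brush border genes were lowest: their medians were 0.53 in WT 2 and 1.13 in KO 2, and -0.17, -0.52 and -0.30 in WT 1, WT 3 and KO 3. Their summed log2 level ranged from 19.96 to 34.1 in WT and from 22.9 to 38.1 in KO. Among them the B cell gene Cd79a stood at 0.59, 3.10 and 0.31 in the WT libraries, against 4.03 in KO 2 and 1.25 in KO 3, and no marker of the list was at 0 in any of the 5 libraries. The 10 fibroblast markers stood apart in WT 2 alone (median 0.35, against -0.21 to -0.14 in the other 4 libraries), and their summed level ranged from 58.6 to 63.7 in WT and from 58.29 to 58.33 in KO. Immune genes were not alone in being highest in WT 2 and KO 2. The Paneth cell list had medians of 0.11 and 0.09 there, and the stem cell list 0.09 and 0.18. The goblet cell list instead was lowest in these libraries, at -0.16 and -0.04. The part of these other cells in the brush border values was not tested.

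**Figure D3:**
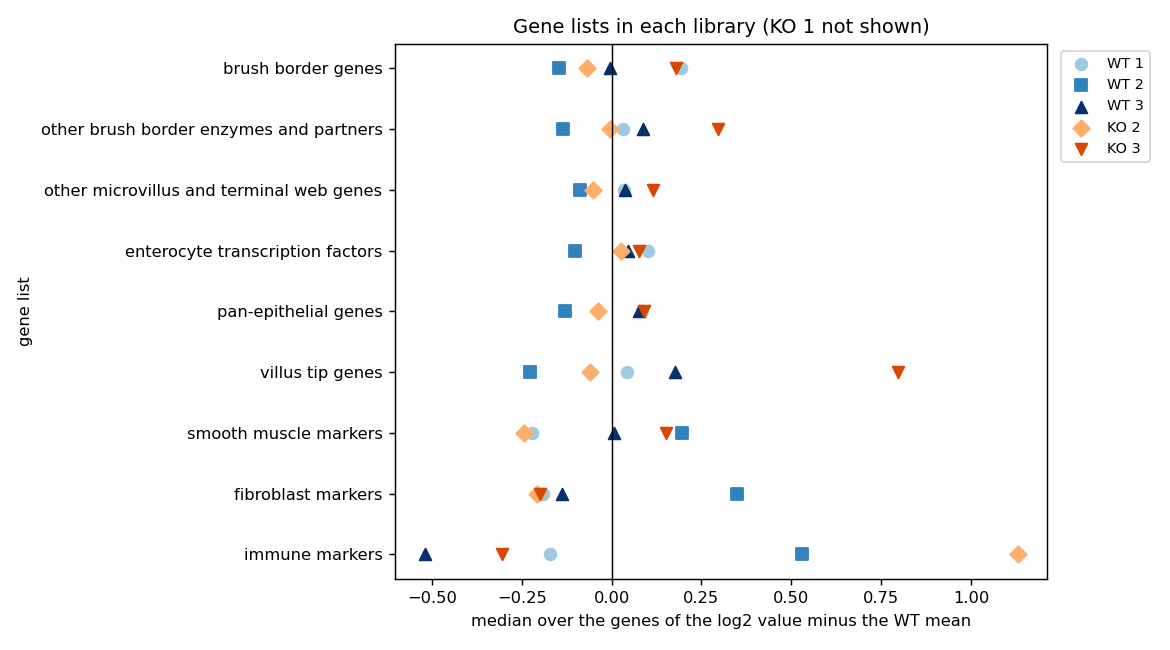
Median over the genes of each list of the log2 value minus the WT mean, 1 point per library (KO 1 not drawn). The brush border and pan-epithelial lists have WT 2 lowest and KO 2 next, the immune list has those 2 libraries highest, and the villus tip list has KO 3 highest at 0.80.

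KO 3 stood out for some genes of the villus tip, the oldest enterocytes. The median of the 10 villus tip genes was 0.80 in KO 3, against -0.06 in KO 2 and -0.23 to 0.18 in WT. That median falls between 5 genes whose KO 3 value was 1.17 to 2.02 above the WT mean (Apoa4, Ada, Creb3l3, Slc28a2 and Nt5e) and 5 for which it was 0.04 to 0.42 above (Klf4, Junb, Egfr, Krt20 and Fos). For Fos and Krt20, KO 3 lay within the WT range. Apoa4, a lipoprotein gene of absorbing enterocytes, was at 5.49 in KO 3 and at 2.80 to 3.92 in the other 4 libraries. Ada, adenosine deaminase, was at 5.52 in KO 3 and at 3.04 to 4.41 elsewhere. Of the 31 brush border genes, Ace, Alpi, Mme and Sis had KO 3 farthest above the WT mean, by 0.61, 0.64, 0.75 and 0.52.

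Related genes outside the 31 were not called either, where 0.00454% of all genes tested were called and 61.1% had a fold above 0. Of 24 other brush border enzymes and partners, 23 were tested and 0 passed by limma, with 16 folds above 0 and 7 below (median 0.13). The gene with the smallest p was Asah2, the neutral ceramidase of the brush border, at 4.04, 4.01 and 3.89 in the WT libraries, against 4.23 in KO 2 and 4.59 in KO 3. Its groups did not overlap, nor did those of Cpm in the same list, where 9.82% of all genes had KO above WT in this way. The log2 fold of Asah2 was 0.43 ± 0.13 (SE, unadjusted p = 0.017, adjusted p = 0.99998 by limma). The fold of Asah2 was 0.247 without KO 3. Of 28 other microvillus and terminal web genes, 0 passed, with 19 above 0 and 9 below (median 0.02); Cobl, an actin nucleator of the microvillus base, had a log2 fold of 0.29. Of 11 apical trafficking genes, 0 passed, with 7 above and 4 below (median 0.03). Of 22 enterocyte transcription factors, 0 passed, with 18 above and 4 below (median 0.05). At an unadjusted p under 0.05 by limma, these 4 lists held 1, 0, 0 and 0 genes, where 2.23% of all genes were.

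KO 1 differed from the other libraries gene by gene within the brush border. This is 1 library, so no test was made, and its values depend on the factor of 2.12. After rescaling, 13 of the 15 genes with values lay above all 5 other libraries, where 21.5% of 6516 covered genes at a mean of 1 or more did, and 1 lay below all 5, where 42.2% did. The 15 include Tmprss15, whose mean is below 1; of the 14 others, 12 lay above all 5 and 1 below. The median difference from the mean of the 5 was 0.65, beside -0.11 over those covered genes.

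The enzymes spread widely in KO 1 and the structural genes little. Enpp3 was at 5.16 in KO 1 (6.22 as deposited) against 2.08 to 2.41 in the other 5 libraries. Ace was at 7.58 (8.66 as deposited) against 5.29 to 5.95, and Alpi at 7.57 (8.65 as deposited) against 5.66 to 6.49. These 3 were more than 1 log2 unit above the highest other library, as were 1.21% of the covered genes. Ggt1 followed at 7.27 against 5.84 to 6.55 and Mep1b at 8.18 against 7.38 to 7.59. Naaladl1 was inside the range, at 8.54 against 8.44 to 8.78. Mep1a was below all 5, at 6.91 against 7.31 to 7.62, so the 2 meprin genes lay on opposite sides of the other libraries. Tmprss15 was at 0.66 against 0.06 to 0.29.

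Of the structural genes that KO 1 covers, all 6 were above the other libraries, by differences from the mean of the 5 between 0.41 for Myo15b and 0.76 for Vil1. Vil1 was at 8.55 against 7.58 to 7.98 and Cdhr2 at 7.80 against 6.94 to 7.36. Amn was at 5.71 against 4.57 to 5.11. Epcam was 0.27 above the mean of the 5, and the 8 covered pan-epithelial genes had a median of 0.11. Of 12 covered genes among the other brush border enzymes and partners, 9 lay above all 5 libraries and 2 below. From that list Lct, encoding lactase, the milk sugar enzyme of the brush border, was at 7.05 in KO 1 against 1.08 to 2.01. Of the segment markers that KO 1 covers, 3 of the 4 proximal genes were above all other libraries and all 6 distal genes were below them, Hoxb9 at 0.16 against 4.10 to 4.29. The fourth covered proximal gene, Slc40a1, the iron exporter, was below the other libraries, at 5.15 against 6.30 to 6.67. The 5 covered smooth muscle markers were all below the other libraries, with a median difference of -2.75, as were the 8 covered fibroblast markers (-1.73). The part of segment and of muscle content in the KO 1 values of the brush border genes was not tested. In KO 1, genotype and the difference in segment markers cannot be told apart.

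**Figure D4:**
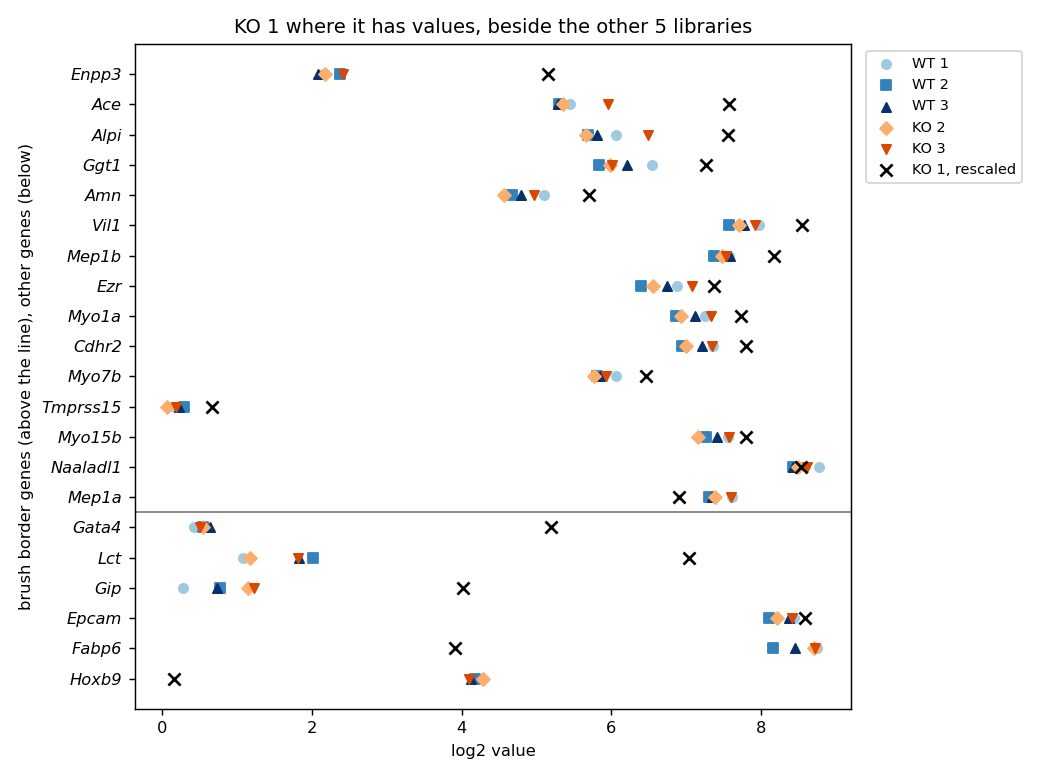
Log2 values of the 15 brush border genes with values in KO 1 (above the line, ordered by the difference of KO 1 from the mean of the other 5 libraries) and of 6 other genes (below), 1 point per library, KO 1 as a cross after rescaling. Enpp3, Ace and Alpi lie more than 1 unit above the other libraries and Mep1a lies below them.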

How the data were processed

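The deposited values, read here as log2(abundance + 1), form 1 table of 6 libraries. The submitters' processing notes name the build mm10. Neither aligner and counting tool nor abundance unit, base of the logarithm and added constant could be read from the labels or header. Depth is unknown, and under base e every fold would be 1.44 times larger. Of 32245 rows, 26 were named by a date and left out. GENCODE vM21 (GRCm38, the assembly of mm10) placed 31398 of 32219 genes.

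KO 2 and KO 3 were compared with 3 WT libraries in R 4.3.3 with limma 3.58.1 (group as the sole term, variance trend, 2-sided). The 22047 genes with values above 0 in 3 or more of these 5 libraries were tested, with Benjamini-Hochberg adjustment and a threshold of 0.05. All 31 members passed that filter. KO 1 was left out and rescaled as described.

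The members and lists were chosen with earlier results of these data known. All members could be named, and up to 4 genes of each companion list by smallest p, with Lct, Gata4, Fabp6, Epcam, Cdx2 and covered segment genes. Hnf4a, Akp3 and the villus tip genes beyond those were chosen after their values were seen. Transcripts were compared by BLAST at 90% identity or more over at least 200 bases.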

Additional observations from a re-analysis of the deposited data

Results flagged for a closer look

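KO 1 was left out of the comparison of KO with WT because it covers part of the genome, and 3 brush border genes stood in it more than 1 log2 unit above every WT library after rescaling. Enpp3 was 2.78 above the highest WT library, Ace 2.14 and Alpi 1.5. Of 6516 covered genes at a mean of 1 or more, 1.21% stood more than 1 above all 5 other libraries. KO 1 also differs from the others in segment and muscle markers, and genotype cannot be told apart from that difference. With 3 libraries or fewer in each group, no test for a single outlying library was made.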

How the results depend on the processing

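No member was called under any of the 18 alternatives. Where KO 2 and KO 3 were both kept, the lowest limma adjusted p of a member was 0.718, with all 6 libraries as deposited. Not all alternatives are separate checks. Reading the logarithm as base e scales all values alike, so its p-values are those of the main fit. The replicate block gives the same member folds as leaving out WT 1. The 1 gene called over the whole table, Gm49380, is no member. The count was 0 with all 6 libraries as deposited, the replicate block, no filter, the stricter filter, a constant of 0.1, the Xist covariate and each library left out (0 to 0). It was 68 with pan-epithelial centring, where limma set the prior degrees of freedom to inf, against 3.09 before. The members' median fold of 0.0478 became -0.364 with all 6 libraries as deposited, where the zeros of KO 1 enter, and ranged from -0.0676 to 0.179 over left-out libraries. With the replicate block, 28 of 31 members were above 0 (median 0.133), the same as without WT 1. With KO 1 left out, WT 1 is alone in its block, so the block removes it from the comparison. The block fit is thus no separate check of pairing. The replicate number is not stated to mark a pair: deviations of same-numbered libraries had correlations of 0.26, 0.53 and 0.06 where KO 1, rescaled, has values. Without KO 1 they were 0.30 for number 2 and 0.35 for number 3. With KO 2 and KO 3 alone, the deviations of these libraries from their mean are equal and opposite. These last correlations are thus not separate checks of pairing.

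With all 6 libraries as deposited, these folds changed sign: Mme to -0.539, Sis to -2.36, Treh to -0.791, Mgam to -2.62, Ggt1 to 0.581 and Asah2 to -1.04. With KO 1 rescaled, and missing where it has no values, Ggt1 became 0.221, Ace 0.953, Alpi 0.72, Enpp3 1.05 and Vil1 0.283, and the members' median 0.123 (26 of 31 above 0). Vil1 became -0.0109 with median centring and -0.00756 with pan-epithelial centring; the cause was not tested. Over left-out libraries, the fold of Treh ranged from -0.0742 to 0.388, Mgam from -0.0511 to 0.298, Alpi from -0.195 to 0.639, Enpp3 from -0.0265 to 0.212 and Vil1 from -0.0676 to 0.145, each lowest without KO 3. Where 1 KO library is left, its variance is taken from the WT libraries. Ace kept its sign throughout. Depth is unknown and limits Tmprss15 and Vill, which lie near 0.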
